A study of Mus musculus with 12 samples.

Results

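Staining with the calcium indicator Fluo-4 separated the single fibers of aged mouse EDL muscle (extensor digitorum longus, a fast muscle of the lower leg) into Fluo-4 normal and Fluo-4 abnormal fibers, and the transcriptomes of both kinds of fiber were compared here. The comparison took 4 samples of Fluo-4 abnormal fibers and 4 samples of Fluo-4 normal fibers, or 8 of the 12 samples of the study, all from 26–28-month-old mice. The other 4 samples were fibers of 3–4-month-old young mice. These samples entered the fitted model, where they helped to estimate the spread between samples, and their values are otherwise given only for reference. EDL muscles were dissociated with collagenase, the fibers were loaded with Fluo-4 and sorted by eye under a fluorescence stereomicroscope, and no genotype or treatment set the groups apart. The methods name C57BL/6J mice and describe the abnormal staining in aged males, but the labels give neither strain nor sex, nor the number of fibers in a sample, and neither source says that a replicate number marks a mouse. The p-values therefore measure the spread between these samples, which may be partly technical.

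Genes were measured in TPM (transcript abundance corrected for transcript length and scaled to the same total in every sample), and 14425 protein-coding and mitochondrially-encoded genes were tested. Of these, 6291 had a mean of at least 5 TPM in the higher of the aged groups. Genes on hand-written lists of oxidative phosphorylation, other mitochondrial functions and the endoplasmic and sarcoplasmic reticulum were set aside (721 genes), which left 5570 genes. *Mpzl3* (5.01 TPM) lay just inside the limit of 5 TPM and *Armc5* (4.99 TPM) just outside.

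Skeletal muscle fibers differ in contraction speed and in fuel. Type IIb fibers carry the fastest myosin heavy chain, *Myh4*, and draw on glycogen, phosphocreatine and glycolysis, whereas IIx (*Myh1*), IIa (*Myh2*) and slow fibers (*Myh7*) hold more mitochondria, myoglobin and fatty acid transport. All of them depend on the Z-disc, which anchors the thin filaments, on the sodium pump, which restores the membrane potential after each action potential, and on the neuromuscular junction, where the receptor kinase MuSK gathers acetylcholine receptors.

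Each sample summed to 1000000 TPM, so these values hold no read depth and carry no counting interval. The defining muscle markers were abundant in all 8 samples (*Acta1*, skeletal actin, 34218 to 44675 TPM in normal and 38959 to 47400 TPM in abnormal fibers), while *Ptprc* (leukocytes) and *Pax7* (satellite cells) stayed at or below 0.262 TPM. The wider marker lists summed to more. Medians in normal and abnormal fibers were 8.06 and 14.2 TPM (immune), 61.6 and 84.1 TPM (satellite cell) and 148 and 135 TPM (erythroid). The endothelial, fibroblast, immune, erythroid, Schwann and nerve, smooth muscle and tendon marker lists had their highest sums in replicate 2 of the normal fibers. There the fibroblast list summed to 219 TPM against 61.5 to 83.4 TPM in the other normal samples. The satellite cell and adipocyte lists were instead highest in replicate 2 of the abnormal fibers (95.5 and 2005 TPM). The scale of the samples also differed. The median change at 5 TPM or more was 0.21 (log2) and fell to -0.00412 with TMM-type factors, which rescale each sample on its less variable genes, so the adjusted p with these factors is given where it changes a call. Of the 12 immune genes tested, *Cd3e* was called higher in limma, also with these factors. Of the 15 satellite cell genes, *Itga7* was called higher (adjusted p = 0.009 in limma, 0.14 with these factors). No gene of either list was called lower. *Myh4* took 1.30 ± 0.249% of the TPM in abnormal and 0.821 ± 0.148% in normal fibers (SD, n = 4 each, exact permutation p = 0.0286, the smallest that 4 against 4 samples allow, two-sided), and the groups did not overlap. The p was 0.0857 without replicate 1, 0.0571 without replicate 2 and 0.0571 without replicate 4 of the normal fibers in exact permutation tests, and 0.13 in an exact sign-flip test of the 4 same-numbered pairs, the smallest that test allows. As a gene, *Myh4* rose by 0.66 on the log2 scale (adjusted p = 0.02), a call lost with TMM-type factors (0.44, adjusted p = 0.18).

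Outside the excluded lists, many genes were modestly higher in the Fluo-4 abnormal fibers, and fewer genes were lower but with larger changes. At an adjusted p-value under 0.05 (limma on log2(TPM + 1), Benjamini-Hochberg over all genes tested), 776 of the 5570 genes were higher (13.9%) and 87 lower (1.56%), against 7.36% higher and 1.99% lower among all genes tested. The median log2 change was 0.51 for the genes called higher and -0.68 for those called lower. A change of at least 1 on the log2 scale was reached by 52 of the higher and 26 of the lower genes. The abnormal samples lay entirely above the normal samples for 702 of the 776 genes and entirely below for 77 of the 87 (over all 5570 genes, 20.8% lay above and 1.99% below without overlap).

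The balance of rises and falls depended on scale. With TMM-type factors 182 genes were higher (3.27%) and 235 lower (4.22%), against 2.14% and 3.77% of all genes tested, which included all 87 of the falls and 182 of the 776 rises. With the replicate number as a block, 741 genes were higher (13.3%) and 75 lower (1.35%), of which 535 and 58 were among those above. With both, 104 were higher (1.87%) and 135 lower (2.42%), and with only the aged samples in the model 304 (5.46%) and 49 (0.88%). Under all 4 combinations of these choices, 84 genes remained higher and 57 lower. Adding the *Myh4* share to the model as a covariate left 23 higher and 29 lower, and with the block as well 0 and 0 in limma (216 genes at an unadjusted p-value under 0.05). Since the *Myh4* shares of the groups did not overlap, the share and the group cannot be told apart in these models. Without abnormal replicate 2, 284 genes were called higher, and without abnormal replicate 3 or normal replicate 1, 472 in each case.

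**Figure D1:**
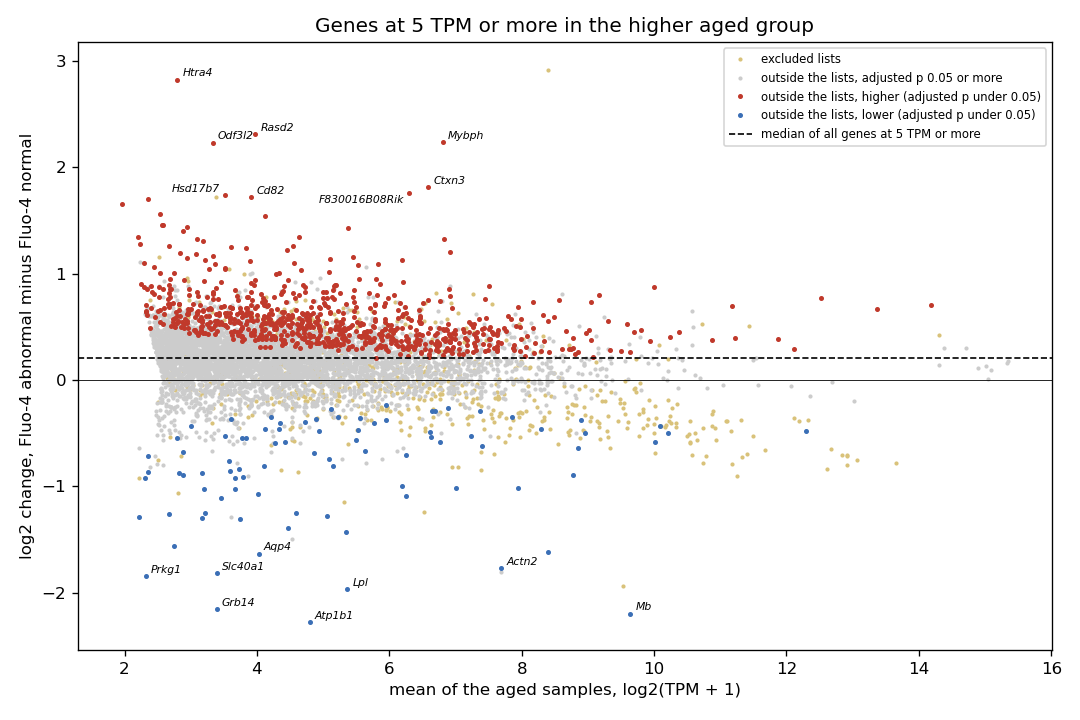
Mean expression of the aged samples against the log2 change between Fluo-4 abnormal and Fluo-4 normal fibers, for genes at 5 TPM or more. Red and blue points are the 776 higher and 87 lower genes outside the excluded lists, yellow points are genes on those lists, the dashed line is the median change (0.21), and the 8 largest rises and falls are named.

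The largest falls outside the mitochondrial lists concerned the sodium pump, oxygen and fatty acid supply, the Z-disc and insulin signaling. *Atp1b1* (chr1:164264678-164285957, minus strand, GRCm39 here and for the other genes), the beta 1 subunit of the sodium pump, was at 41.99, 48.7, 45.9 and 42.6 TPM in normal fibers 1 to 4 and at 13.5, 10.8, 5.22 and 6.39 TPM in abnormal fibers 1 to 4. The groups were far apart, and the young fibers lay between them at 24.8 to 28.8 TPM. The mean fell 4.995-fold, and the log2 change was -2.28 ± 0.21 (SE, adjusted p = 0.00018). *Fxyd6* (chr9:45281302-45307457, plus strand), which encodes a small regulator of the same pump, fell as well, from 24.6–39.5 TPM to 6.09–16.02 TPM (log2 change -1.39 ± 0.23, adjusted p = 0.0033).

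Another subunit of the pump moved differently. *Atp1b2* (chr11:69487651-69496851, minus strand), the beta 2 subunit, was at 18.2, 23.4, 30.96 and 25.6 TPM in normal and 41.3, 51.3, 46.2 and 44.7 TPM in abnormal fibers, without overlap and in the opposite direction (log2 change 0.89 ± 0.13, adjusted p = 0.002). Hence *Atp1b1* exceeded *Atp1b2* in every normal sample, and *Atp1b2* exceeded *Atp1b1* in every abnormal sample, on the length-corrected TPM scale.

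*Mb* (chr15:76899686-76940711, minus strand), which encodes the oxygen store myoglobin, was at 934, 1884, 1252 and 1128 TPM in normal fibers and 471, 337, 166 and 211 TPM in abnormal fibers. All abnormal samples were lower, by 4.39-fold in the mean (log2 change -2.20 ± 0.29, adjusted p = 0.00087), and the young fibers (686 to 1009 TPM) overlapped the normal ones. An antisense non-coding gene, *Gm49540*, shares exons with *Mb* and fell with it, and the libraries keep no strand, so their reads cannot be separated.

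Some genes of fatty acid supply fell as well. *Lpl* (chr8:69284603-69360100, plus strand), the lipase that frees fatty acids from lipoproteins, was at 27.9, 98.2, 82.00 and 50.4 TPM in normal and 16.97, 27.6, 6.11 and 13.2 TPM in abnormal fibers. Both groups were spread, and the highest abnormal sample lay just below the lowest normal sample. Its log2 change of -1.97 ± 0.40 (adjusted p = 0.0095) lost the call with the replicate block (adjusted p = 0.066).

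*Cd36* (chr5:17986432-18094067, minus strand), a fatty acid transporter, went from 38.1, 73.3, 55.7 and 65.6 TPM to 22.3, 22.4, 12.5 and 26.99 TPM, again without overlap (log2 change -1.43 ± 0.23, adjusted p = 0.0033). *Fabp3* (chr4:130202388-130209259, plus strand), which carries fatty acids through the cytosol, was at 506 to 716 TPM in normal and 280.1 to 373 TPM in abnormal fibers (-0.90 ± 0.14, adjusted p = 0.0028). It shares exon sequence with *Zcchc17* on the other strand. Exons of *Atp1b1*, *Actn3*, *Hspb6*, *Phkb*, *Prkag3*, *Slc27a1* and *Ugp2* likewise overlap a coding gene on the other strand, so their values are uncertain to that extent. The list of cytosolic lipid uptake and lipid droplets had 5 of 27 tested members lower (*Fabp3*, *Cd36*, *Slc27a1*, *Lpl* and *Dgat2*) and 0 higher. Of all genes tested, 1.99% were called lower and 7.36% higher (3.77% and 2.14% with TMM-type factors). With TMM-type factors the counts of this list were 7 lower and 0 higher, and *Dgat2* lost its call with the replicate block (adjusted p = 0.055). The list's median log2 change was -0.07, and that of all genes 0.10.

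*Cd36* is also expressed by cells of the capillary wall. The endothelial marker list summed to 58.5 to 188 TPM in normal and 18.2 to 101 TPM in abnormal samples, with 0 of its 15 members called by limma (1 at an unadjusted p under 0.05, and 1 called lower with the replicate block). Its members nevertheless leaned down, with 14 of 15 negative and a median log2 change of -0.39 (-0.72 for the 3 at 5 TPM or more), and *Pecam1* was at 1.97 to 4.58 and 0.2 to 3.404 TPM. *Lpl*, *Cd36* and *Fabp3* kept their calls in each fit without 1 sample, but such fits cannot address a lean shared by a whole group. The part of these cells in the falls was not tested.

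At the Z-disc, *Actn2* (chr13:12281303-12356693, minus strand), the alpha-actinin of all fiber types, was at 215, 394, 358 and 308 TPM in normal and 99.96, 125, 73.5 and 72.04 TPM in abnormal fibers. Every abnormal sample lay below every normal one, and the young fibers lay between (148 to 184 TPM). The mean fell 3.44-fold (log2 change -1.77 ± 0.19, adjusted p = 0.00049).

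*Actn3* (chr19:4911215-4928529, minus strand), the alpha-actinin of fast fibers, was on the contrary at 3246, 4350, 5100 and 4629 TPM in normal and 5587, 7806, 8695 and 7454 TPM in abnormal fibers. It rose by 0.77 ± 0.15 on the log2 scale (adjusted p = 0.0073), though not past the threshold with TMM-type factors (adjusted p = 0.052). *Fhl1* (chrX:55777147-55838706, plus strand), a LIM protein of the sarcomere that responds to stretch, fell from 312, 572, 525 and 634 TPM to 177, 148, 124 and 203 TPM (-1.62 ± 0.20, adjusted p = 0.00071), with no overlap. Of the 28 members of the Z-disc list, 4 fell (*Actn2*, *Fhl1*, *Myot* and *Ankrd2*) and 4 rose (*Pdlim3*, *Cavin4*, *Synpo2l* and *Des*). Outside the excluded lists at 5 TPM or more, 1.56% of genes were called lower and 13.9% higher. *Des* lost its call with TMM-type factors (adjusted p = 0.48) and *Ankrd2* with the replicate block (adjusted p = 0.091). *Pdlim3*, an actinin-binding LIM protein, rose by 0.88 ± 0.11 (adjusted p = 0.00071).

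*Grb14* (chr2:64742812-64855331, minus strand), an adaptor that inhibits the insulin receptor, was at 14.4, 18.9, 16.7 and 14.2 TPM in normal and 5.11, 3.004, 1.29 and 2.73 TPM in abnormal fibers. The separation was wide in every pair of samples, and the mean fell 5.28-fold (log2 change -2.15 ± 0.23, adjusted p = 0.00049). *Prkg1* (chr19:30541889-31742479, minus strand), the cGMP-dependent protein kinase, went from 3.57, 9.29, 9.80 and 4.97 TPM to 1.93, 1.22, 0.696 and 0.65 TPM (-1.84 ± 0.27, adjusted p = 0.0022).

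*Aqp4* (chr18:15522451-15544039, minus strand), the water channel of the fast fiber membrane, was at 24.9, 19.8, 25.4 and 23.9 TPM in normal and 10.6, 5.35, 5.84 and 6.58 TPM in abnormal fibers (-1.63 ± 0.18, adjusted p = 0.00049). *Slc40a1* (chr1:45947211-45965683, minus strand), the iron exporter ferroportin, fell from 7.82–22.4 TPM to 2.05–4.52 TPM (-1.82 ± 0.27, adjusted p = 0.0022). *Slc47a1* (chr11:61234226-61269171, minus strand), an exporter of organic cations, fell by 1.30 ± 0.26 on the log2 scale (adjusted p = 0.0083).

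*Car2* (chr3:14951317-14967568, plus strand), a carbonic anhydrase that buffers carbon dioxide and protons, was tightly grouped in the normal fibers at 8.22, 9.40, 9.22 and 8.58 TPM. The abnormal samples were at 5.28, 1.91, 1.64 and 1.55 TPM, with replicate 1 apart from the other 3, and the young fibers at 1.30 to 3.97 TPM overlapped the abnormal ones. The log2 change was -1.56 ± 0.29 (adjusted p = 0.0065). Among the 12 tested genes of lactate and pH transport, *Slc16a1* (the monocarboxylate transporter MCT1) also fell (-0.76 ± 0.20, adjusted p = 0.028, 0.1 with the replicate block and up to 0.083 without 1 sample). *Bsg*, its chaperone basigin, rose by 0.45 ± 0.11 (adjusted p = 0.019), a call lost with TMM-type factors (adjusted p = 0.49).

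The secreted proteins *Lrg1* (chr17:56426283-56429001, minus strand) and *Thbs4* (chr13:92888095-92931501, minus strand), a thrombospondin of the extracellular matrix, completed the 15 largest falls, at -1.31 (adjusted p = 0.0038) and -1.29 (adjusted p = 0.014). The call of *Thbs4* was lost in 2 of the 8 fits without a sample, one of them without abnormal replicate 2 (adjusted p = 0.059). *Thbs4* is also a tendon marker, and that list summed to 17.5 to 25.6 TPM in normal and 17.8 to 21.2 TPM in abnormal fibers. Its part in the fall was not tested. Next in rank was *Mgst1* at -1.28, against -1.29 for *Thbs4*.

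**Figure D2:**
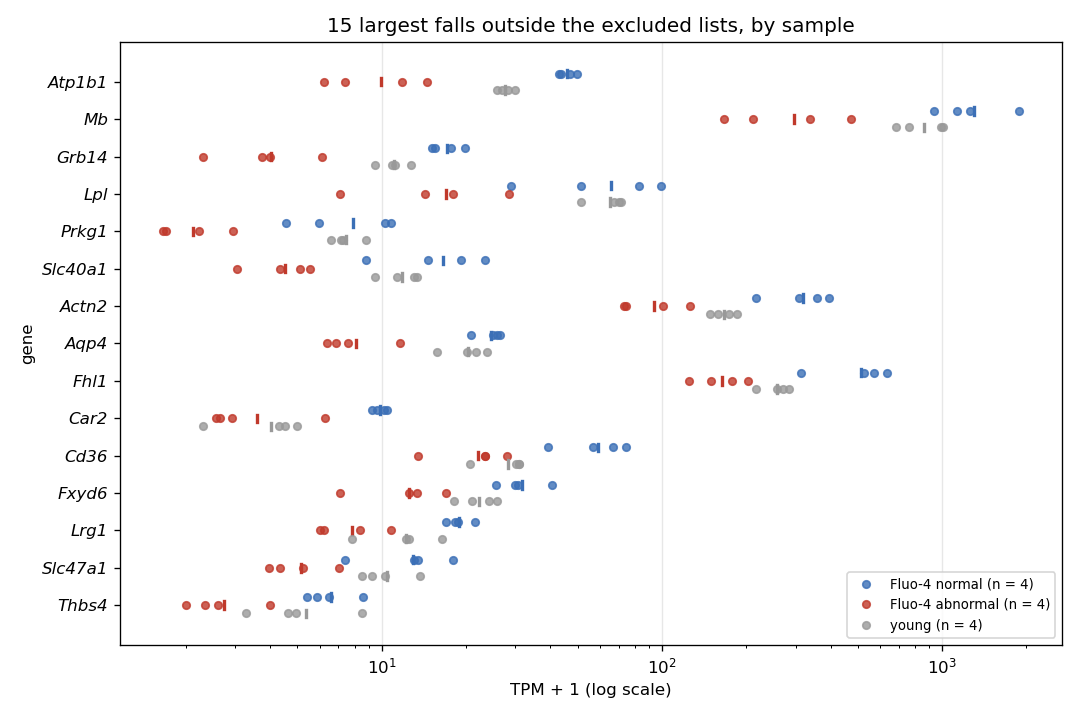
TPM + 1 (log axis) of the 15 genes with the largest falls, by sample. Blue, red and grey points are the 4 normal, 4 abnormal and 4 young samples and bars are group means, and for each gene every red point lies to the left of every blue point, as the choice of genes required.

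The largest rises were of more varied function, and several began from a low level. *Htra4* (chr8:25514945-25528990, minus strand), a secreted serine protease, was nearly silent in normal fibers (0.383, 0.1, 1.35 and 1.26 TPM) and at 8.53, 11.9, 9.51 and 14.7 TPM in abnormal fibers. The groups did not overlap, yet the young fibers were at 7.92 to 19.3 TPM, and overlapped the abnormal ones. The mean rose 14.4-fold (log2 change 2.82 ± 0.29, adjusted p = 0.00049). *Htra4* shares exon sequence with *Tm2d2* on the other strand, whose level was 60.0 to 69.4 TPM in normal and 65.9 to 83.3 TPM in abnormal fibers.

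*Rasd2* (chr8:75940572-75950874, plus strand), a small GTPase of the Ras family, was at 3.29, 4.46, 5.05 and 4.17 TPM in normal and 19.2, 29.8, 29.8 and 22.3 TPM in abnormal fibers. Here the young fibers were the lowest (0.71 to 2.06 TPM), so that the 3 groups were stacked without overlap. Its log2 change was 2.31 ± 0.21 (adjusted p = 0.00018).

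*Mybph* (chr1:134121171-134132301, plus strand), myosin-binding protein H of the thick filament, was at 35.99, 11.8, 60.2 and 49.3 TPM in normal and 199, 83.6, 132 and 314 TPM in abnormal fibers. Both groups were spread, but the lowest abnormal sample stayed above the highest normal sample, and the young fibers (32.6 to 71.8 TPM) overlapped the normal ones. The mean rose 4.64-fold (log2 change 2.23 ± 0.47, adjusted p = 0.011). *Adora1* on the other strand, with which it shares exons, was at no more than 1.04 TPM.

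At the neuromuscular junction, *Musk* (chr4:58285931-58377847, plus strand) was at 2.45, 3.11, 3.74 and 3.32 TPM in normal and 9.17, 12.3, 9.49 and 9.92 TPM in abnormal fibers, each group tight (1.44 ± 0.20, adjusted p = 0.0012). *Chrnb1* (chr11:69674860-69686773, minus strand), the beta subunit of the acetylcholine receptor, was at 26.9, 29.9, 32.6 and 34.4 TPM and 54.5, 65.8, 55.8 and 66.4 TPM, so that it nearly doubled without overlap (0.95 ± 0.10, adjusted p = 0.00049). *Chrna1*, the alpha subunit, rose less (0.55 ± 0.13, adjusted p = 0.018, and 0.11 with TMM-type factors). Of the 23 tested genes of the junction and denervation list, 4 rose and 0 fell, and 2 and 0 with TMM-type factors. Of all genes tested 7.36% were called higher, and 13.9% of those outside the excluded lists at 5 TPM or more. With TMM-type factors these shares were 2.14% and 3.27%. The Schwann and nerve marker list summed to 8.16 to 21.6 TPM in normal and 10.6 to 18.4 TPM in abnormal fibers, with 0 of its 9 tested members called by limma (1 at an unadjusted p under 0.05).

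Several rises were in membrane and adhesion proteins. *Ctxn3* (chr18:57600675-57611207, plus strand), of the cortexin family of small membrane proteins, was at 34.4, 36.2, 48.2 and 43.7 TPM in normal and 87.9, 176, 169 and 165 TPM in abnormal fibers (1.81 ± 0.20, adjusted p = 0.00049), with abnormal replicate 1 apart from the other 3. *Cd82* (chr2:93249455-93293485, minus strand), a tetraspanin, rose from 4.497–7.37 TPM to 13.6–26.3 TPM (1.72 ± 0.25, adjusted p = 0.002). *Cadm1* (chr9:47441471-47773576, plus strand), an adhesion molecule of the immunoglobulin superfamily, rose from 1.10–2.66 TPM to 5.14–10.1 TPM (1.56 ± 0.24, adjusted p = 0.0024). *Mpzl3*, which also has an immunoglobulin domain, rose by 1.66 ± 0.27 (adjusted p = 0.003, and 0.078 with TMM-type factors and the block).

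*Slc2a3* (chr6:122704768-122778599, minus strand), the high-affinity glucose transporter GLUT3, was at 0.613, 2.48, 0.803 and 1.65 TPM in normal and 3.48, 10.7, 6.76 and 6.26 TPM in abnormal fibers (1.70 ± 0.32, adjusted p = 0.0065). The levels remained low beside those of the muscle transporter *Slc2a4* (GLUT4), with means of 338 and 325 TPM (log2 change -0.05, adjusted p = 0.77), which was called lower with TMM-type factors (-0.27, adjusted p = 0.03). The insulin signaling and glucose uptake list had 7 of 32 members higher and 1 lower, and 3 and 2 with TMM-type factors. Of all genes tested, 7.36% were higher and 1.99% lower. At 5 TPM or more outside the excluded lists, 13.9% were higher and 1.56% lower (3.27% and 4.22% with TMM-type factors). *Hsd17b7* (chr1:169777093-169796813, minus strand), a reductase of cholesterol synthesis, was at 3.58, 4.33, 4.77 and 3.96 TPM in normal and 9.81, 21.1, 20.2 and 16.1 TPM in abnormal fibers (1.74 ± 0.21, adjusted p = 0.00065). Of the 21 tested genes of cholesterol synthesis, 1 was higher and 0 lower, but 1 and 1 with TMM-type factors, where *Fdft1* (squalene synthase) was lower, and 2 and 1 with the replicate block.

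The other 5 of the 15 rises were *Odf3l2* (2.23), *F830016B08Rik* (1.76), *Fam174b* (1.54), *1700001O22Rik* (1.46) and the tetratricopeptide repeat gene *Ttc9* (1.45), all log2 changes, with adjusted p-values of 0.00052 to 0.032. *Fam174b* was at 0.256 to 0.573 TPM in young, 4.31 to 12.4 TPM in normal and 12.8 to 41.02 TPM in abnormal fibers, so the 3 groups did not overlap. Its call was lost without abnormal replicate 2 (adjusted p = 0.055) and with TMM-type factors and the block (adjusted p = 0.084). *1700001O22Rik* was the least stable of the 30 genes, and lost its call with TMM-type factors (adjusted p = 0.059) and in 7 of the 8 fits without a sample (adjusted p up to 0.11). *Smoc2*, next in rank, had a log2 change of 1.43 against 1.44 for *Musk*.

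**Figure D3:**
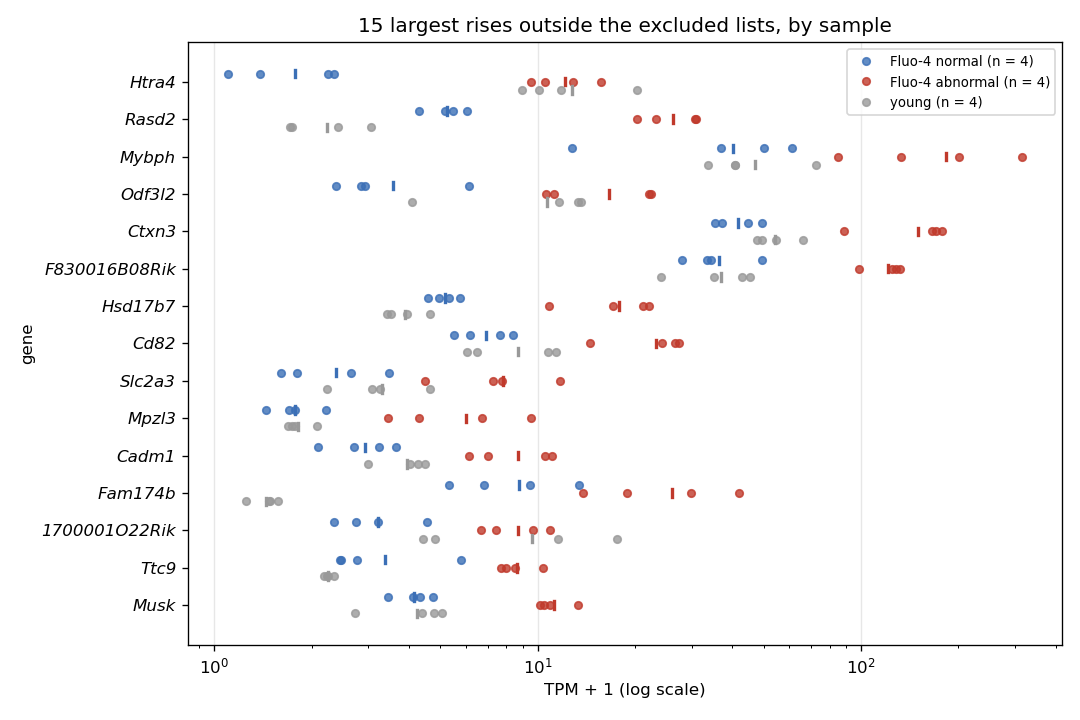
TPM + 1 (log axis) of the 15 genes with the largest rises, by sample. Blue, red and grey points are the 4 normal, 4 abnormal and 4 young samples and bars are group means, and the red points lie to the right of the blue ones for each gene, as the choice of genes required.

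Beside the young fibers, the 30 genes fell into a few patterns, given as a description. For the 15 rises, the young samples lay entirely below the abnormal samples in 11 genes and overlapped them in 4, and they overlapped the normal samples in 11 genes. For the 15 falls, they lay entirely above the abnormal samples in 11 genes and overlapped them in 4, and they overlapped the normal samples in 8 and lay entirely below them in 7. The aged normal fibers thus held more *Atp1b1*, *Grb14* and *Actn2* than the young fibers did, and the abnormal fibers less.

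Same-numbered samples were also compared as pairs. All 30 genes moved in their direction in each of the 4 pairs, which their choice without overlap required. Pair 1 had the smallest difference in 14 of the 15 falls, and pair 3 the largest in 11. In 11 of the 15 falls normal replicate 1 was the lowest of the normal samples. Among the rises no pair was the smallest in more than 6 genes, and pair 2 had the largest difference in 10.

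Normal replicate 1 also stood apart in *Myh1*, the IIx myosin, which was at 46.2, 542, 488 and 262 TPM in normal and 64.5, 147, 48.5 and 44.3 TPM in abnormal fibers. The groups overlapped and the change did not pass the test (-1.81 ± 0.63, adjusted p = 0.087). Within pair 1, *Myh1* was higher in the abnormal sample (difference 0.47), while *Atp1b1* (-1.57), *Mb* (-0.99), *Grb14* (-1.34) and *Actn2* (-1.10) were lower. *Myh4* was higher in the abnormal sample of every pair, by 0.43 to 0.78. With the *Myh4* share as a covariate, 3 of the 15 rises (*Htra4*, *Rasd2* and *Cd82*) and 3 of the 15 falls (*Atp1b1*, *Slc40a1* and *Actn2*) kept an adjusted p under 0.05, and all 30 kept their sign. The change was smaller with the covariate in most of the 30. It was as large or larger in 9, among them *Mybph* (3.04 against 2.23), *Lpl* (-2.25 against -1.97) and *Prkg1* (-2.12 against -1.84). The share and the group cannot be told apart in this model.

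**Figure D4:**
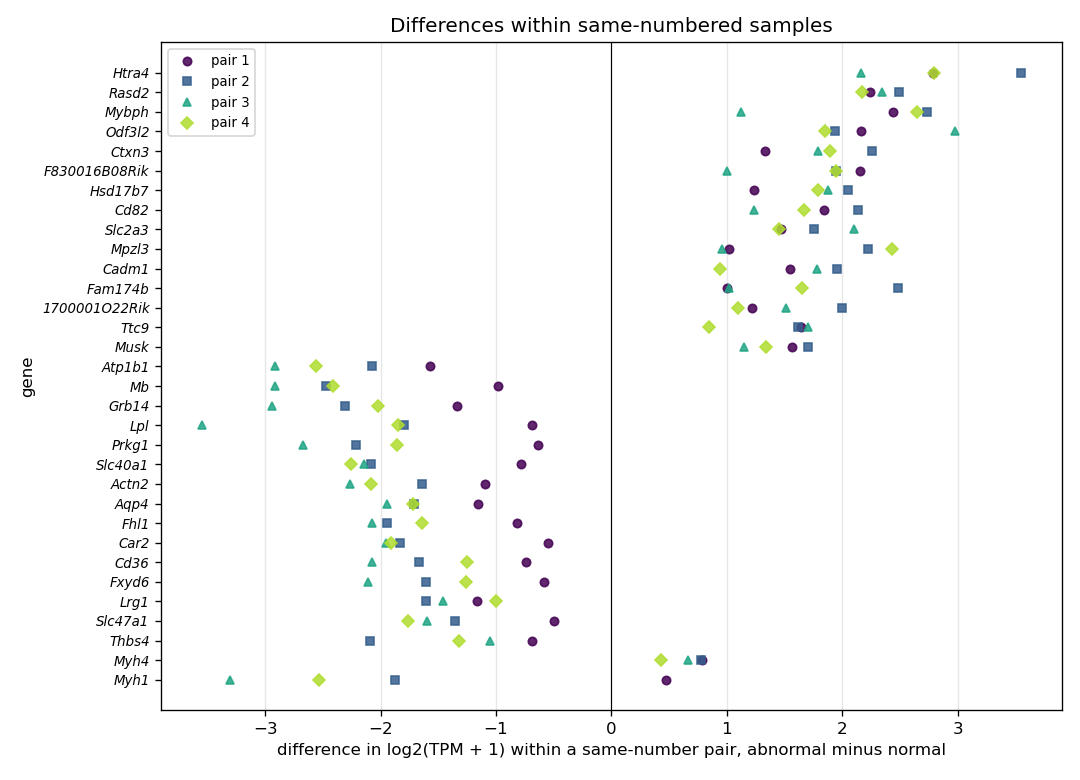
Differences in log2(TPM + 1) between same-numbered Fluo-4 abnormal and normal samples for the 15 rises, the 15 falls and 2 myosin heavy chains. Each symbol is 1 of the 4 pairs. All 4 lie on the same side of 0 for the 30 genes, as the choice of genes required, and for *Myh4*. Pair 1 lies nearest to 0 in 14 of the 15 falls and on the other side for *Myh1*.

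The sequence upstream of these genes was read for the 8 rises and 10 falls with a RefSeq promoter (GRCm38.p6, the 250 bases before the start, both strands searched). The E-box CANNTG, the core bound by MyoD-type factors, was found in 4 of the 8 rises and 8 of the 10 falls, against 66% of all 27025 promoters. The MEF2 motif and the site AAGGTCA of estrogen-related receptors were found in 0 of the 18 (3.23% and 4.05% of all promoters). TATAAA occurred in *Mybph* and *Fhl1* (13% of all), in both only on the strand opposite the gene, where the gene's own strand reads TTTATA. A pair of sarcomere genes that moved in opposite directions are shown, *Mybph* (chr1:134193198-134193447, plus strand) and *Actn2* (chr13:12340733-12340982, minus strand), with E-boxes in capitals.
*Mybph*: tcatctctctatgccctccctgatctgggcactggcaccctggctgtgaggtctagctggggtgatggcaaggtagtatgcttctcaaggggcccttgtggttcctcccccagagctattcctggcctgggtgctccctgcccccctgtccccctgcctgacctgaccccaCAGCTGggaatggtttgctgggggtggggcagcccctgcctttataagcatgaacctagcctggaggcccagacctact
*Actn2*: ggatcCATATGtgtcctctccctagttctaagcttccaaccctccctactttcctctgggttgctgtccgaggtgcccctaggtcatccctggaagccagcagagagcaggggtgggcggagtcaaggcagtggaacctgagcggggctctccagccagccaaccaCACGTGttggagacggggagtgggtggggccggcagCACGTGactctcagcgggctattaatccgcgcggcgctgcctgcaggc

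The wider gene lists describe which functions moved around these genes. They were written with earlier results of these data known, so their counts are descriptions to be read against the 7.36% of all genes called higher and the 1.99% called lower. Many lists hold mostly genes at 5 TPM or more. For these the nearer shares are the 13.9% and 1.56% given above for the genes outside the excluded lists. At the Z-disc, the 4 of 28 called higher lie near the 13.9%, whereas the 4 of 28 called lower lie above the 1.56%. The fast fiber sarcomere proteins had 3 of 11 members higher and 0 lower, namely *Mybpc2* (0.69 ± 0.08, adjusted p = 0.00052), *Tpm1* (0.70 ± 0.11, adjusted p = 0.0024) and *Actn3*. With TMM-type factors 1 of the 11, *Mybpc2*, was called higher and 0 lower. The median log2 change of these fast fiber proteins was 0.208, against 0.207 for all genes at 5 TPM or more. With TMM-type factors it was -0.0185. The slow fiber sarcomere proteins had 0 of 10 called by limma in either direction (2 at an unadjusted p under 0.05). Among 19 other thick and thin filament proteins 6 rose and 1 fell, and 2 and 1 with TMM-type factors. The fall was *Tpm2*, the beta tropomyosin, at 5237, 5824, 6402 and 6039 TPM in normal and 4249, 3960, 4438 and 4133 TPM in abnormal fibers, which did not overlap (-0.48 ± 0.08, adjusted p = 0.0041). *Tpm1*, the alpha tropomyosin, lost its call with TMM-type factors (adjusted p = 0.2), whereas *Tpm2* kept it.

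At the fiber membrane, 8 of 28 ion channels and pumps rose and 1, *Atp1b1*, fell (7 and 3 with TMM-type factors). *Cacng1*, the gamma subunit of the muscle calcium channel, was at 376, 376, 470.2 and 437 TPM in normal and 555, 736, 843 and 779 TPM in abnormal fibers (0.80 ± 0.12, adjusted p = 0.0024). *Clcn1*, the chloride channel that stabilizes the resting potential, rose by 0.63 (adjusted p = 0.0077). Of 20 genes of the T-tubule and membrane repair, 7 rose and 0 fell, among them *Cavin1* (0.77 ± 0.12, adjusted p = 0.0029), *Cavin4* (0.60 ± 0.09, adjusted p = 0.0026) and *Bin1*, which shapes the tubule (0.44 ± 0.07, adjusted p = 0.0024). With TMM-type factors 2 of them, *Cavin1* and *Cavin4*, were called. The dystrophin-glycoprotein complex and laminin receptors had 4 of 23 higher, and 0 with TMM-type factors.

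Carbohydrate and energy genes moved in both directions. *Prkag3* (chr1:74775818-74788380, minus strand), the regulatory AMPK subunit of glycolytic muscle, was at 46.1, 70.5, 65.6 and 72.97 TPM in normal and 127, 189, 156 and 172 TPM in abnormal fibers. It separated the groups in every pair (1.33 ± 0.17, adjusted p = 0.00077). In glycolysis 3 of 23 genes rose and 0 fell (1 and 2 with TMM-type factors, 1 and 1 with the replicate block), with *Pfkfb3*, an activator of the pathway through fructose 2,6-bisphosphate, changed the most among the 3 (25.2 to 64.6 against 73.5 to 118 TPM, 1.13 ± 0.24, adjusted p = 0.011, 0.053 without abnormal replicate 2). The median of the glycolysis list was -0.00910, below that of all genes (0.10).

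In glycogen metabolism 6 of 20 rose and 1 fell, and 2 rose and 2 fell with TMM-type factors. The subunits *Phka1* (0.50) and *Phkb* (0.47) of phosphorylase kinase, which starts glycogen breakdown, rose, and *Ugp2*, which makes UDP-glucose for glycogen synthesis, fell by 0.38 ± 0.07 on the log2 scale (adjusted p = 0.0055). *Gamt*, the last enzyme of creatine synthesis, was at 16.2, 14.6, 12.4 and 13.1 TPM in normal and 37.9, 29.8, 28.5 and 29.02 TPM in abnormal fibers (1.10 ± 0.13, adjusted p = 0.00071). *Adk*, adenosine kinase, fell from 134–200.4 TPM to 67.1–107 TPM (-1.02 ± 0.15, adjusted p = 0.002), and *Ampd1*, the AMP deaminase of muscle, rose (0.53 ± 0.08, adjusted p = 0.0022). *Gamt* overlaps exons of *Ndufs7* on the other strand.

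Most genes of the polyamine list passed the test on the deposited scale, and few with TMM-type factors. *Odc1* (chr12:17594383-17601507, plus strand), the first and limiting enzyme of the pathway, was at 74.6, 63.9, 64.3 and 85.9 TPM in normal and 158, 184, 136 and 195 TPM in abnormal fibers, and the mean rose 2.33-fold (1.21 ± 0.20, adjusted p = 0.0039). Of the 12 tested members, 7 rose and 0 fell, including *Amd1* (1.09, adjusted p = 0.025), the decarboxylase of the next step. With TMM-type factors *Odc1* alone passed (1 of 12). The antizyme *Oaz1* has a near-identical pseudogene copy, so its value is uncertain. *Amd1* was not among the genes checked for copies. *Amd2* rose alike (1.03, adjusted p = 0.024 in limma), and whether *Amd1* and *Amd2* share reads was not tested.

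Signaling and growth genes followed. The calcium buffer and calcineurin list had 7 of 21 higher and 1 lower, and 1 and 2 with TMM-type factors. *Rcan2*, an inhibitor of calcineurin, was the one that fell, at 12.6, 21.8, 14.8 and 15.6 TPM in normal and 7.01, 8.56, 6.94 and 6.69 TPM in abnormal fibers (-1.03 ± 0.16, adjusted p = 0.0028). *Ppp3ca*, the catalytic subunit of calcineurin, rose by 0.59 ± 0.12 (adjusted p = 0.012, 0.051 without abnormal replicate 2).

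Secreted factors split into 6 higher and 3 lower of 33, and 5 and 4 with TMM-type factors. *Il15*, a cytokine made by muscle, was at 14.2, 13.1, 13.4 and 14.96 TPM in normal and 6.28, 4.68, 5.69 and 7.25 TPM in abnormal fibers, a clear separation (-1.11 ± 0.14, adjusted p = 0.00073). *Vegfb*, a growth factor linked to fatty acid transport across the capillary wall, fell from 79.6–102 TPM to 54.01–59.4 TPM (-0.71 ± 0.08, adjusted p = 0.00049). *Igfbp5*, an IGF-binding protein named here after its values were seen, rose from 16.2–25.01 TPM to 35.3–60.9 TPM (1.13 ± 0.17, adjusted p = 0.0022). *Mstn*, the muscle growth inhibitor myostatin, rose by 0.82 ± 0.17 (adjusted p = 0.011, 0.052 without abnormal replicate 2).

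Several protein turnover lists had many small rises that depended on scale. The proteasome had 12 of 37 higher and 1 lower (1 and 2 with TMM-type factors). Translation factors had 12 of 39 higher and 0 lower (4 and 0), and autophagy and lysosome 8 of 31 higher and 0 lower (1 and 1). Cytosolic ribosomal proteins had only 4 of 81 higher and 0 lower (0 and 1). That is a smaller share than the 13.9% called higher among genes outside the excluded lists at 5 TPM or more. *Tfeb*, the transcription factor of lysosomal genes, rose by 0.72 ± 0.13 (adjusted p = 0.0047) and kept its call with TMM-type factors (adjusted p = 0.015). The small heat shock protein *Hspb6* fell from 1309–1510 TPM to 979–994 TPM (-0.50 ± 0.06, adjusted p = 0.00073), and *Hspb8* rose from 145–217 TPM to 269.6–331 TPM (0.69 ± 0.14, adjusted p = 0.0089).

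Among transcription factors of muscle 4 of 31 rose and 0 fell (3 and 0 with TMM-type factors), with *Eya4* (1.04 ± 0.20, adjusted p = 0.0067) and *Mafa* (0.77 ± 0.15, adjusted p = 0.0068) among them. The clock genes *Rora* and *Cry2* rose by 0.91 and 0.77, with adjusted p-values of 0.022 and 0.026, and both lost the call without abnormal replicate 2, among others (0.085 and 0.098). *Cry2* also lost it with the replicate block (adjusted p = 0.067). No member was called in the 29 tested genes of MHC class I and the interferon response (4 at an unadjusted p under 0.05 in limma, 1 called lower with TMM-type factors) or in the 15 of NAD synthesis (1, and 1 called lower with TMM-type factors).

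**Figure D5:**
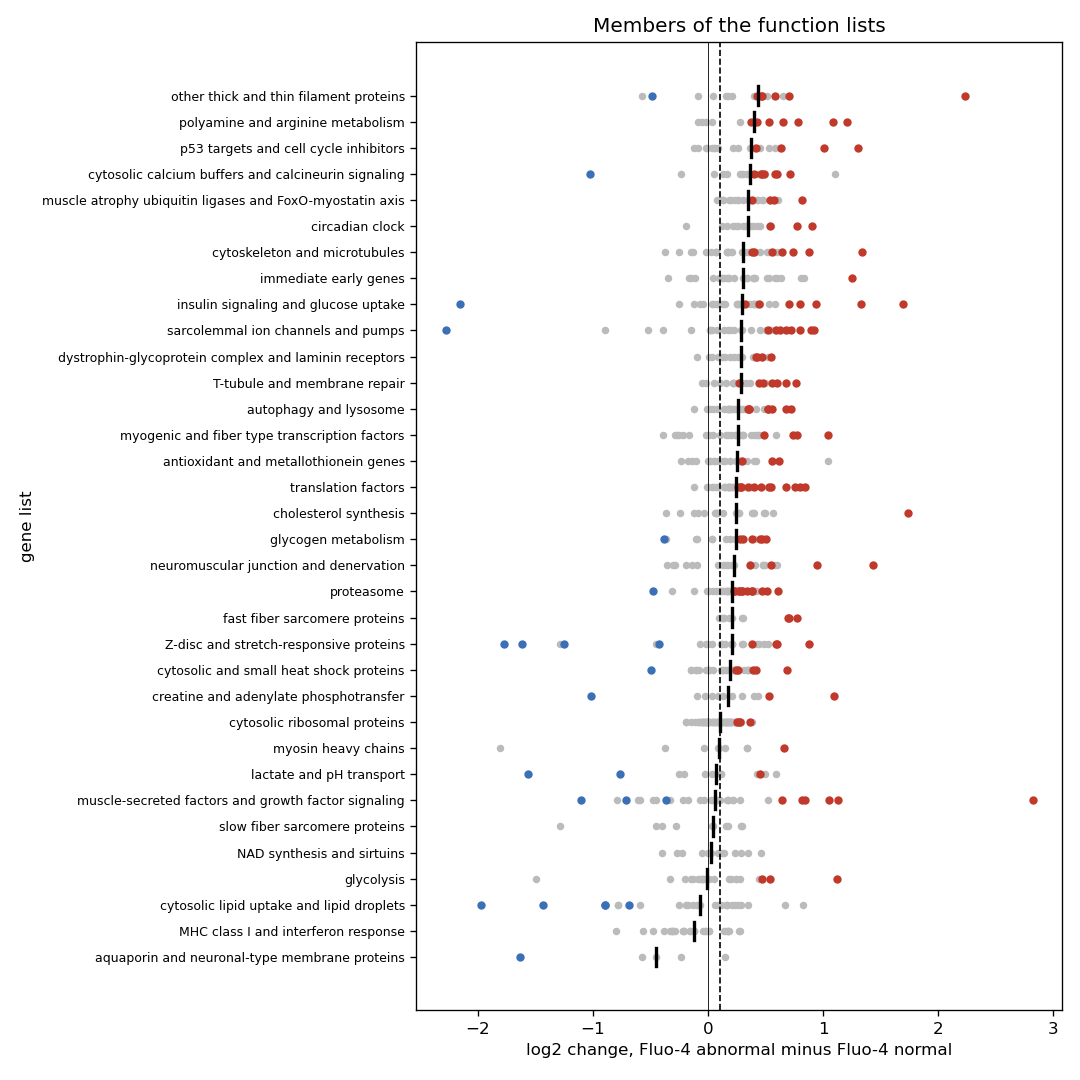
Log2 change of each tested member of the gene lists, Fluo-4 abnormal minus Fluo-4 normal. Red and blue points passed the test, grey points did not, black bars are list medians and the dashed line is the median of all genes tested (0.10). The polyamine list and the other thick and thin filament proteins lie above it. Lipid uptake, the slow fiber sarcomere proteins and the myosin heavy chains are among the lists below it.

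Non-coding genes were fitted separately with all annotated genes. Of 545 at 5 TPM or more, 30 were higher (5.5%) and 30 lower (5.5%). *2310075C17Rik*, a long non-coding RNA that overlaps *Arpp21*, was at 30.9, 38.7, 40.6 and 25.96 TPM in normal and 10.7, 6.71, 2.44 and 5.14 TPM in abnormal fibers (log2 change -2.38 ± 0.30, SE, adjusted p = 0.0016). *Gm47708*, which overlaps no coding gene, was at 12.1, 7.89, 7.42 and 7.92 TPM in normal and 0.916, 1.09, 0.508 and 1.49 TPM in abnormal fibers (-2.30 ± 0.23, adjusted p = 0.00097). *B230312C02Rik*, which also overlaps none, rose from 2.12, 2.97, 2.67 and 3.82 TPM to 9.20, 18.0, 19.5 and 17.3 TPM (2.09 ± 0.27, adjusted p = 0.0016). None of these 3 overlapped between the groups.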

How the data were processed

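RNA of isolated fibers was amplified with SMART-Seq v4 from 10 ng, without strand information, and the authors mapped its reads with DRAGEN 4.3 (GRCm39). The deposited files, 1 for each sample, hold TPM with 55487 lines and 55367 symbols. The 114 symbols on several lines were summed. Read counts were not used here, and the annotation release is not given in the sources used here. Symbols were matched to GENCODE vM39 (49848) or by synonym (103) or RefSeq (2526), and 2890 were unmatched. The fit took protein-coding and mitochondrially-encoded genes with a mean of at least 0.02 TPM in 1 group, which left out non-coding genes (6.81% to 10.2% of TPM).

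limma 3.58.1 (R 4.3.3) fitted log2(TPM + 1) over the 3 groups and all 12 samples, with a variance trend and two-sided p-values adjusted by Benjamini-Hochberg. A fold change on this scale understates that of low genes. Named genes were the 15 largest rises and 15 largest falls (adjusted p under 0.05, no overlap, at least 5 TPM), in each list at most 3 genes chosen by p, the myosin heavy chains and defining markers, of which some are printed. Excluded genes came from symbol lists alone, because no gene descriptions were at hand, so some mitochondrial genes stay among the 5570. Members and lists were chosen with earlier results of these data known. Same-numbered abnormal and normal samples deviated together (correlations 0.42, 0.36, 0.42 and 0.29 over 6291 genes, -0.35 to 0.22 for other numbers), so the numbers were treated as pairs from the data alone. Of 80 genes checked, 38 overlapped exons of another gene by at least 100 bp, and 1 had a copy (BLAST 2.17.0, at least 95% identity). On simulated data (14425 genes, 200 changed) 88% of 2-fold and 99% of 4-fold changes were recovered, and 4.59% of calls were false. The simulated samples had independent noise, without the difference in scale or the pairing seen in these data. These rates therefore describe the model and not the error of the calls above. The model was refitted with TMM-type factors (30% and 5% trimmed), other filters, pseudocounts and gene sets, the replicate block, the *Myh4* share and leaving out each sample. TMM-type factors with the block were added after the data were seen. Figures used Python 3.11.15 and matplotlib 3.10.9.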

Additional observations from a re-analysis of the deposited data

Results flagged for a closer look

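In groups of 4 samples, a sample was singled out when its gap to the nearest other sample exceeded Dixon's 95% limit, as a share of the range, which chance exceeds in about 1 of 20 groups. Among the named genes, abnormal replicate 1 stood apart in *Ctxn3* (low, 87.9 TPM), *Car2* (high, 5.28 TPM), *Gamt* (high, 37.9 TPM) and *Fabp3* (high, 373 TPM). Abnormal replicate 3 was low in *Slc16a1* (4.53 TPM), and abnormal replicate 2 was high in *Cavin4* (122 TPM). Among the normal fibers, replicate 4 was high in *Ttc9* (4.80 TPM) and replicate 1 low in *Phkb* (134 TPM) and *Nedd4* (54.6 TPM). Normal replicate 2 was high in 5 marker lists, the summed fibroblast (219 TPM), immune (22.4 TPM), erythroid (482 TPM), Schwann and nerve (21.6 TPM) and tendon (25.6 TPM) markers.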

How the results depend on the processing

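Counts of calls over all genes tested were 1062 higher and 287 lower. They were 308 and 544 with TMM-type factors, 150 higher with these factors and the replicate block, 627 higher with scaling without the mitochondrially-encoded genes, 422 and 145 with only the aged samples, 41 and 38 when the *Myh4* share was a covariate, and 0 and 0 when the replicate block was added to it. For the genes outside the lists at 5 TPM or more (776 and 87), the counts were 182 and 235 with TMM-type factors, 104 and 135 with these factors and the replicate block, 427 higher with scaling without the mitochondrially-encoded genes, 1284 higher with a filter of 5 TPM, 304 and 49 with only the aged samples, 23 and 29 with the *Myh4* share and 0 and 0 with the share and the block. The filter leaves fewer genes to adjust over, and the aged samples alone fewer samples. Otherwise the cause was not tested.

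Leaving out 1 sample gave 413 to 1124 higher and 184 to 297 lower genes over all, 284 to 855 and 60 to 94 outside the lists. The lowest counts came without abnormal replicate 2 (413 and 284) and, for all lower genes, without abnormal replicate 3 (184) or normal replicate 2 (186).

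The difference in the *Myh4* share, 0.481 percentage points, was 0.395 to 0.555 without 1 sample. As a share of myosin heavy chain TPM it was 3.13 points (99.3% against 96.2%, exact permutation p = 0.0571), and in an exact sign-flip test of the pairs (replicate block) it was 0.481, with the smallest p that 4 pairs allow, above the threshold. With the replicate block alone, *Lpl* was the only one of the 30 largest changes to lose its call, and the counts of calls stayed within 1.5 times. Read depth is unknown, so counting error could not be separated from the spread of samples.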

Other observations

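Outside the largest changes, 2 cytosolic enzymes of the malate-aspartate shuttle fell, both named after their values were seen. *Got1*, the cytosolic aspartate aminotransferase, was at 265, 369, 354 and 334 TPM in normal and 172, 186, 138 and 153 TPM in abnormal fibers (-1.02 ± 0.11, SE, adjusted p = 0.00049 in limma). *Mdh1*, the cytosolic malate dehydrogenase, was at 519.9, 611, 597 and 530.4 TPM and 373, 378, 325 and 367 TPM (-0.64 ± 0.08, adjusted p = 0.00073). Neither overlapped between the groups.

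*Egln3*, an oxygen-sensing prolyl hydroxylase, and *Tmem37*, a membrane protein, were also picked for their values. *Egln3* fell from 12.9, 21.00, 21.1 and 28.3 TPM to 5.98, 12.2, 6.53 and 13.4 TPM, with overlap (-1.08 ± 0.27, adjusted p = 0.026, up to 0.084 without 1 sample). *Tmem37* went from 86.8, 111, 102 and 82.5 TPM in normal to 45.96, 60.3, 55.4 and 31.6 TPM in abnormal fibers, while young fibers were at 23.2 to 31.9 TPM (1.98-fold lower in the mean, adjusted p = 0.0044). *Eda2r*, a receptor of the p53 target list, was at 2.12 to 2.44 TPM in young, 1.23 to 6.97 TPM in normal and 8.58 to 15.4 TPM in abnormal fibers (1.31 ± 0.32, adjusted p = 0.024, up to 0.076 without 1 sample).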
